A study of Mus musculus with 8 samples.

Results

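The 10 genes described here are Hspa5, Sdf2l1, Dnajb9, Herpud1, Xbp1, Atf4, Ddit3, Trib3, Chac1 and Asns, a short list of transcripts of the unfolded protein response of the endoplasmic reticulum (ER) and of the integrated stress response. They were taken by name from 20408 genes with a value in any library, and all 10 had a row in each of the 8 tables. Their levels were measured by single-cell RNA sequencing (10x Chromium, 3′ chemistry) in CD31+ endothelial cells (ECs) sorted from mouse breast tumours. The 8 libraries formed 4 groups of 2: spontaneous tumours of MMTV-PyMT mice after PBS or after cGAMP, and implanted PyMT tumours after PBS or after cGAMP. cGAMP is a cyclic dinucleotide that activates STING, and tumours were taken 3 h after it was injected into them. In MMTV-PyMT mice the mammary tumour virus promoter drives the polyoma middle T oncogene in mammary epithelium, and the mice were treated from 9 weeks of age. The implanted tumours came from PyMT tumour cells cultured for 2 days and placed in the mammary fat pad of recipients aged 8 to 9 weeks. All mice were female adults. The labels give the strain as C57BL/6, the methods name FVB mice, and which is right was not settled. The methods give 2 mice per group without saying that each library is 1 mouse, so the spread between libraries may be partly technical.

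Secreted and membrane proteins fold in the ER, and EC output of adhesion molecules, matrix and von Willebrand factor passes through it. When unfolded protein accumulates, the sensors IRE1, ATF6 and PERK release the chaperone BiP, the product of Hspa5. IRE1 splices Xbp1 mRNA, ATF6 is cut to a transcription factor, and PERK phosphorylates the initiation factor eIF2alpha. That phosphorylation, which other kinases also carry out in response to viral RNA, amino acid shortage or haem shortage, lowers general translation and raises that of ATF4. ATF4 then drives amino acid genes and CHOP, the product of Ddit3. STING itself sits in the ER membrane. The 3′ reads here cannot tell spliced from unspliced Xbp1 mRNA, and no protein, phosphorylation or translation was measured.

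Of 8204 deposited cells, 7159 carried a Pecam1 (CD31) UMI and were used as ECs, 601 to 1529 per library. The deposited cells are not the same number as the cells the study describes before or after its own selection, so these ECs are not the study's set. All 8 general EC markers checked were detected in every library. Replicate 1 of implanted cGAMP stood apart. Its ECs had a median of 3049 UMIs against 9523 to 14707.5 in the other libraries, 37.9% of them were under 2000 UMIs against 3.28% to 10.6%, and 75.5% of its deposited cells carried Pecam1 against 88.7% to 92.8%. The main calls that use it are also given without it. Across the 28 pairs of libraries 7 cell barcodes were shared, at most 3 in a pair. Levels are given as mean CPM, the CPM value of each cell averaged over the ECs of a library. The list was read from 290 Chac1 UMIs up to 69807 Hspa5 UMIs over all libraries.

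Markers of other cells moved with treatment and are given here once for all 10 genes. Summed mural markers (6 genes) were at 83.5 and 426 CPM after PBS and 570 to 715 CPM after cGAMP in spontaneous tumours, and at 75.3 to 105 and 119 to 202 CPM in implanted ones. Summed immune markers (6 genes) were at 8.29 to 13.2 CPM after PBS and 50.8 and 184 CPM after cGAMP in implanted tumours, and at 8.73 to 11.0 and 20.9 to 31.3 CPM in spontaneous ones. Epithelial markers (6 genes) were at 1075 and 156 CPM in implanted cGAMP replicates 1 and 2 against 271 to 370 CPM after PBS, and overlapped in spontaneous tumours. Of the 4 plasma cell markers Jchain, Mzb1 and Igkc, which define secretory B cells, stayed under 5 CPM in all 8 libraries, and all 3 were at 0 in implanted cGAMP replicate 1 and in spontaneous cGAMP replicate 2. The sum of the 4 was 20.4 to 27.8 CPM after PBS and 8.10 to 11.8 CPM after cGAMP in spontaneous tumours, and 20.9 to 32.1 and 16.5 to 28.2 CPM in implanted ones, most of it from Sdc1. Summed dissociation stress genes (8 genes) were at 5673 to 6691 CPM after PBS and 6717 to 7184 CPM after cGAMP in spontaneous tumours, and at 4068 to 5359 and 4999 to 5930 CPM in implanted ones, so that they were lower in implanted than in spontaneous tumours under both treatments without overlap. Marker sums of vessel types moved too. Summed proliferative markers were at 286 to 375 CPM after PBS and 26.1 to 51.0 CPM after cGAMP in implanted tumours. In spontaneous tumours they were at 105 to 180 and 31.9 to 45.5 CPM. Summed lymphatic markers were at 400 to 566 CPM after PBS and 1684 to 1716 CPM after cGAMP in implanted tumours, and at 463 to 1037 and 547 to 812 CPM in spontaneous ones. Summed tip markers were at 356 to 486 and 580 to 722 CPM in implanted and at 416 to 522 and 530 to 545 CPM in spontaneous tumours. Except where values without such cells are given, the part of these differences in the results was not tested.

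The 10 genes lie on 8 mouse chromosomes and are all protein-coding (GRCm38, the assembly also called mm10, with GENCODE coordinates). Those on the plus strand are Hspa5 at chr2:34771970-34777547, Chac1 at chr2:119351229-119354381, Herpud1 at chr8:94386438-94395377, Ddit3 at chr10:127290774-127296288, Xbp1 at chr11:5520659-5525893 and Atf4 at chr15:80255184-80257541. Those on the minus strand are Trib3 at chr2:152337422-152344032, Asns at chr6:7675169-7693254, Dnajb9 at chr12:44205559-44210326 and Sdf2l1 at chr16:17130138-17132383. Ddit3 overlaps Mars on the opposite strand (at most 31.2 CPM) and carries a second annotated gene model of the same name. Herpud1 overlaps the antisense gene Gm15890 (at most 0.677 CPM). How reads in these overlaps were assigned is not given in the sources used here, so the Ddit3 values are uncertain to the extent that Mars reads fell there.

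The promoters of all 10 genes were found in RefSeq (GRCm38.p6, 250 bases before to 50 after the start of the gene) and were searched on both strands for 4 motifs. ERSE, the ER stress element that binds ATF6 with NF-Y, was searched as CCAAT, 9 bases, then CCACG. ERSE-II was searched as ATTGG, 1 base, then CCACG, the amino acid response element (CARE) of ATF4 as TGATGNAA, and the core of the UPRE bound by XBP1 as TGACGTG. ERSE was in 0.119% of 32851 promoters and in 1 of the 10 (Hspa5), and ERSE-II in 0.0365% and in 1 of the 10 (Herpud1). CARE was in 3.97% of promoters and in 4 of the 10 (Asns, Chac1, Trib3 and Herpud1), and the UPRE core in 2.01% and in 1 of the 10 (Hspa5). ERSE and ERSE-II share the letters CCACG, and no matches overlapped in the windows of the 10 genes. A match describes letters only and is not a measured binding site. The 4 promoters below are shown for their responses in implanted tumours. Hspa5 and Herpud1 carry ER stress elements but had responses of opposite sign. Asns and Chac1 carry a CARE and were higher after cGAMP, but the filter on low levels fixed the sign for Chac1, which was not higher in spontaneous tumours. The other genes with a CARE were Trib3, which was not called, and Herpud1, which was lower. Capitals mark the matches, ERSE and UPRE core in Hspa5, ERSE-II and CARE in Herpud1, and CARE in Asns and Chac1. The windows are chr2:34771840-34772139 (plus strand), chr8:94386179-94386478 (plus strand), chr6:7693160-7693459 (minus strand) and chr2:119350992-119351291 (plus strand).
Hspa5: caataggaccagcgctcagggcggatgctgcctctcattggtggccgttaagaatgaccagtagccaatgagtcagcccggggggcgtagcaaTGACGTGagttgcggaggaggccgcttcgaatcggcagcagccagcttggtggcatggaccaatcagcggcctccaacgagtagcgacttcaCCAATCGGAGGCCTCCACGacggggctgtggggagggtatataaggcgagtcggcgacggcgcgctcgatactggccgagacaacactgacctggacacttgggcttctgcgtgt
Herpud1: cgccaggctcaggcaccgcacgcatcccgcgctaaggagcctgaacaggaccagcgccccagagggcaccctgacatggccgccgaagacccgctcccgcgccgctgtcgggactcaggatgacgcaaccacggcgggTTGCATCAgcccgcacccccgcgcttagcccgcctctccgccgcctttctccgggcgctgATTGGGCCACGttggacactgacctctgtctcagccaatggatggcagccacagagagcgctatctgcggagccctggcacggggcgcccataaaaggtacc
Asns: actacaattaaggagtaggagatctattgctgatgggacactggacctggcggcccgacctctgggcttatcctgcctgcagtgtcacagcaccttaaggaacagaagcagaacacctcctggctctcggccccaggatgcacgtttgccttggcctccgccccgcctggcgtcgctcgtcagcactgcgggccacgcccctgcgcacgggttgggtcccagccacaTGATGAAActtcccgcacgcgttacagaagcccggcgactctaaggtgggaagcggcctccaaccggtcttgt
Chac1: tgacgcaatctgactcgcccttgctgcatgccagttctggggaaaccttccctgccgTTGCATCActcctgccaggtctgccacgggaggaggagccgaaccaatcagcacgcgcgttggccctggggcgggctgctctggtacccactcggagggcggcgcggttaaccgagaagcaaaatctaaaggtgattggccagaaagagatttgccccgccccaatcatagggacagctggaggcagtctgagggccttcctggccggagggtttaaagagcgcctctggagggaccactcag

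**Figure D1:**
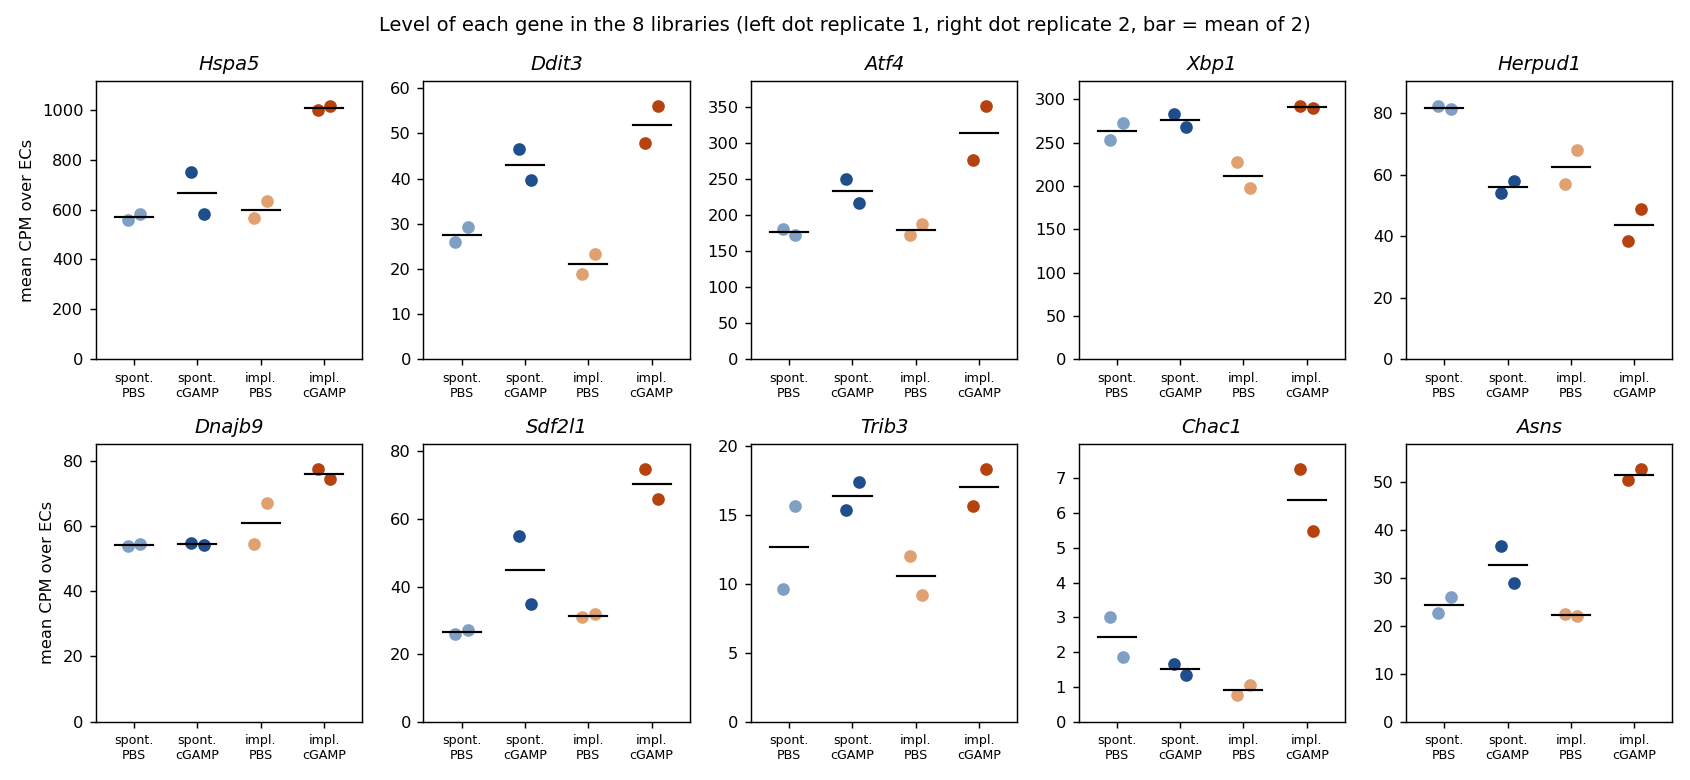
Level of each of the 10 genes (mean CPM over ECs, linear axis from 0) in the 8 libraries, with 2 dots per group and a bar at their mean. In implanted tumours the 2 cGAMP dots lie apart from the 2 PBS dots for every gene, above them for 9 genes and below them for Herpud1. For Chac1 this followed from the filter on low levels, which it passed only through these cGAMP libraries.

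In implanted tumours cGAMP was followed by higher levels of 6 genes (Hspa5, Sdf2l1, Xbp1, Atf4, Ddit3 and Asns) and a lower level of Herpud1, among the 9 that passed the filter on low levels in other groups too. Dnajb9 and Trib3 did not pass the test. Chac1 entered the fit only through these cGAMP libraries and is given apart. The 6 rises ran from 1.38-fold for Xbp1 to 2.41-fold for Ddit3, on the log2(CPM + 1) scale, which understates changes of low genes. The test was limma over the 10424 genes that reached 5 CPM in 2 or more libraries, at a Benjamini-Hochberg adjusted p under 0.05. In this comparison it called 25.0% of all genes, 8.60% as higher and 16.4% as lower. The 2 cGAMP libraries did not overlap the 2 PBS libraries for any of the 9 genes apart from Chac1, as was so for 63.1% of all genes tested. For Chac1 the filter fixed this in advance.

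Among the chaperones, Hspa5 (BiP, the main ER chaperone of the Hsp70 family) was at 565 and 635 CPM in the PBS libraries and at 999 and 1015 CPM in the cGAMP libraries. Both cGAMP values lay above both PBS values, and the log2 fold change was 0.75 (SE 0.11, adjusted p = 0.00147). Sdf2l1, an ER protein that works with BiP and its J proteins, went from 30.9 and 32.0 CPM to 74.8 and 66.0 CPM (log2 fold change 1.14, SE 0.18, adjusted p = 0.00193). Dnajb9 (ERdj4), a J protein that loads BiP onto clients and onto IRE1, was at 54.6 and 67.0 CPM after PBS and at 77.5 and 74.3 CPM after cGAMP, and the groups did not overlap. At 0.32 on the log2 scale (SE 0.11) it missed the threshold (adjusted p = 0.055), and the value was 0.29 (adjusted p = 0.145) without the shallow library. It passed in 4 of 19 alternatives, among them 0.47 (adjusted p = 0.0314) without implanted PBS replicate 2 and 0.42 (adjusted p = 0.0213) with median-of-ratios scaling.

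Herpud1, a membrane protein of ER-associated degradation that binds the ubiquitin ligase HRD1, was the exception in sign. It was at 56.9 and 68.1 CPM after PBS and at 38.4 and 48.9 CPM after cGAMP, with a log2 fold change at -0.51 (SE 0.13, adjusted p = 0.0187). The lower cGAMP value came from the shallow replicate 1. Without that library the log2 fold change was -0.34 and the adjusted p 0.0843, without implanted PBS replicate 2 they were -0.39 and 0.149, and the call was lost in 7 of 19 alternatives in all (adjusted p from 0.00535 to 0.191). The sign was negative in all 19.

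The 3 transcription factors rose together in implanted tumours. Atf4, the factor whose translation eIF2alpha phosphorylation favours, was at 172 and 187 CPM after PBS and at 276 and 351 CPM after cGAMP (log2 fold change 0.79, SE 0.12, adjusted p = 0.00141). Ddit3 (CHOP), a target of ATF4 that drives death programmes under prolonged stress, was at 18.9 and 23.2 CPM after PBS and at 47.9 and 56.0 CPM after cGAMP (log2 fold change 1.27, SE 0.14, adjusted p = 0.000302). Xbp1, the IRE1 substrate, was at 227 and 197 CPM after PBS and at 292 and 291 CPM after cGAMP (log2 fold change 0.46, SE 0.09, adjusted p = 0.0045). For all 3 the lower cGAMP library was above the higher PBS library, and the calls of these 3 and of Hspa5 held in all 19 alternatives.

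Of the targets of the ATF4 arm, Asns (asparagine synthetase) rose. It was at 22.5 and 22.0 CPM after PBS and at 50.4 and 52.8 CPM after cGAMP, with no overlap and a log2 fold change at 1.18 (SE 0.13, adjusted p = 0.000325). Chac1, an enzyme that breaks down glutathione, was at 0.77 and 1.05 CPM after PBS and at 7.26 and 5.48 CPM after cGAMP (log2 fold change 1.94, SE 0.39, adjusted p = 0.00597). Because it passed the filter only through the 2 cGAMP libraries it had to differ there, so its call is not counted with the others, and it rests on few UMIs (14 to 122 per library). Trib3, a pseudokinase that restrains CHOP and AKT, was at 12.0 and 9.17 CPM after PBS and at 15.6 and 18.3 CPM after cGAMP (log2 fold change 0.64, SE 0.23, adjusted p = 0.0651) and passed in 6 of 18 alternatives, among them 1.12 (adjusted p = 0.00174) with UMIs summed per library. Over the list the median log2 fold change was 0.77, and 0.75 without Chac1, beside -0.10 over all genes tested. With the shallow library left out, Asns (1.21), Atf4 (0.96), Ddit3 (1.38), Hspa5 (0.76), Sdf2l1 (1.05) and Xbp1 (0.46) stayed called, Herpud1 was lost, and Chac1 no longer passed the filter.

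In spontaneous tumours 3 of the 10 genes passed the test after cGAMP, in a comparison that called 12.7% of all genes, 5.09% as higher and 7.59% as lower. Ddit3 rose from 25.9 and 29.2 CPM to 46.6 and 39.7 CPM (log2 fold change 0.63, SE 0.14, adjusted p = 0.0221). In cells without a Pecam1 UMI but with 2 or more mural markers it was at 58.5 CPM in PBS replicate 2 and at 102 and 150 CPM after cGAMP. In those with 2 or more epithelial markers it was at 32.4 and 23.1 CPM, then at 94.0 and 78.6 CPM. These sets held 29 to 56 cells in a library, and the part of such cells in the rise was not tested. Sdf2l1 rose from 25.8 and 27.1 CPM to 54.9 and 34.8 CPM (log2 fold change 0.71, SE 0.18, adjusted p = 0.0331). The higher of its cGAMP values was that of replicate 1, without which the log2 fold change was 0.39. Herpud1 fell from 82.2 and 81.2 CPM to 53.9 and 57.8 CPM (log2 fold change -0.54, SE 0.13, adjusted p = 0.0272). The groups did not overlap for these 3 genes or for Atf4, Asns and Chac1, 6 of the 10, beside 60.3% of all genes tested.

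The remaining 7 genes did not pass in spontaneous tumours. Asns (22.7 and 26.1 CPM after PBS, 36.8 and 28.9 CPM after cGAMP) and Atf4 (181 and 173 CPM, then 250 and 216 CPM) did not overlap between groups and came close, with adjusted p of 0.0791 and 0.0582. Atf4 passed in 5 of 19 alternatives, with summed UMIs (adjusted p = 0.00639), median-of-ratios scaling (0.0315), ECs of at least 2000 UMIs (0.0173) and without either implanted cGAMP library (0.0155 and 0.0158), and Asns passed in 3. Hspa5 was at 558 and 583 CPM after PBS and at 751 and 581 CPM after cGAMP, so its groups overlapped (log2 fold change 0.21, SE 0.11, adjusted p = 0.242). Xbp1 was at 254 and 273 CPM, then 284 and 268 CPM. Dnajb9 was level in all 4 libraries (53.8 and 54.5 CPM, then 54.8 and 54.1 CPM). Trib3 overlapped (9.63 and 15.6 CPM, then 15.4 and 17.4 CPM). Chac1 was at 3.02 and 1.85 CPM after PBS and at 1.67 and 1.35 CPM after cGAMP (log2 fold change -0.44, adjusted p = 0.496), without overlap. Each of the 3 calls was lost when either spontaneous PBS library or spontaneous cGAMP replicate 1 was left out, and those of Ddit3 and Herpud1 also without cGAMP replicate 2. That of Sdf2l1 was lost as well without either implanted PBS library (adjusted p = 0.0533 and 0.0539), which entered only the estimate of the spread. The median over the list was 0.30, and 0.38 without Chac1, beside -0.10 over all genes.

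**Figure D2:**
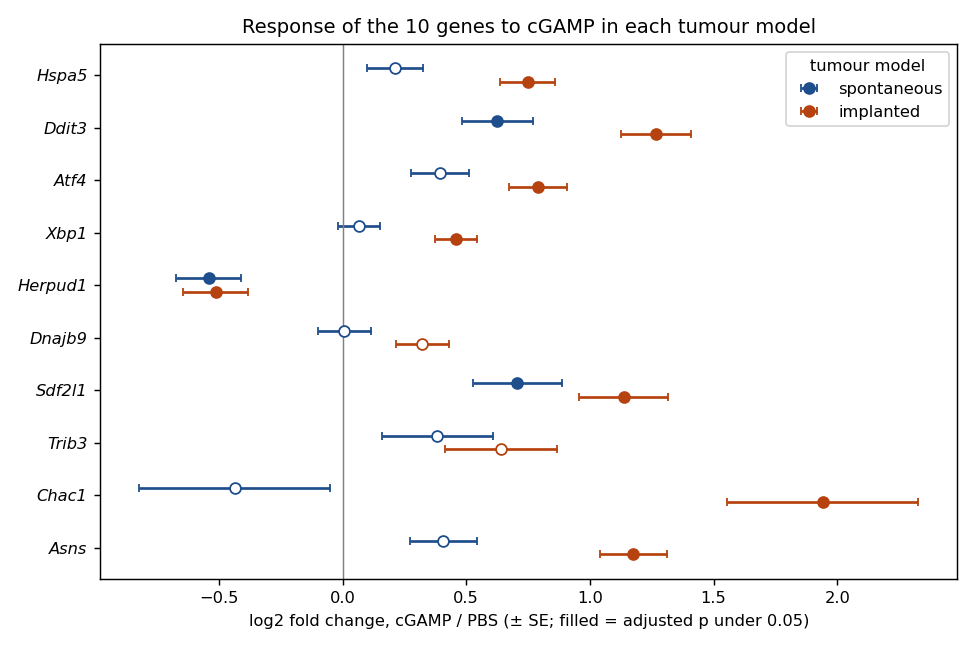
Log2 fold change of each gene, cGAMP over PBS, in spontaneous (blue) and implanted (brown) tumours, with bars of 1 SE and filled symbols for an adjusted p under 0.05. All 10 genes have the higher value in implanted tumours, and Herpud1 lies below 0 in both models. Chac1 passed the filter on low levels only through the implanted cGAMP libraries.

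The difference between the responses (implanted minus spontaneous) was positive for all 9 genes apart from Chac1, and for Chac1 too. None of the 10 passed the test, in a comparison that called 0.662% of all genes. By limma 5 of the 9 had an unadjusted p under 0.05, as did 1400 of 10424 genes. The largest difference was 2.38 (SE 0.55, adjusted p = 0.101) for Chac1, with the limit on its filter given above. Asns followed with 0.77 (SE 0.19, adjusted p = 0.12), Ddit3 with 0.64 (SE 0.20, adjusted p = 0.225) and Hspa5 with 0.54 (SE 0.16, adjusted p = 0.194). Herpud1 had the smallest, 0.03 (SE 0.18). The larger number of calls in implanted tumours is therefore not shown to be a difference between the models, gene by gene. None of the 10 passed in any of the alternatives tried. Without the shallow library the values were 0.80 for Asns, 0.75 for Ddit3, 0.55 for Hspa5, 0.57 for Atf4 and 0.20 for Herpud1.

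After PBS none of the 10 genes passed the test between the tumour models, in a comparison that called 7.83% of all genes by limma. Unadjusted p was under 0.05 for 3 of the 10 (and for 2527 of 10424 genes), Xbp1, Herpud1 and Ddit3, all lower in implanted tumours, with log2 differences of -0.31 (SE 0.09), -0.39 (SE 0.13) and -0.38 (SE 0.14). Xbp1 at 197 and 227 CPM in implanted and 254 and 273 CPM in spontaneous PBS libraries did not overlap (adjusted p = 0.0559), as 7 of the 10 genes and 58.0% of all genes did not. It passed in 4 of 19 alternatives and Herpud1 in 3.

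After cGAMP 5 of the 9 genes apart from Chac1 were higher in implanted than in spontaneous tumours, where 13.8% of all genes were called and 5.23% as higher. They were Hspa5 (log2 difference 0.61, SE 0.11, adjusted p = 0.00985), Asns (0.65, SE 0.13, adjusted p = 0.0152), Dnajb9 (0.47, SE 0.11, adjusted p = 0.0213), Sdf2l1 (0.67, SE 0.18, adjusted p = 0.038) and Atf4 (0.42, SE 0.12, adjusted p = 0.0443). Chac1 differed by 1.55 (SE 0.39, adjusted p = 0.0301), with the limit on its filter given above. Of the 9 genes apart from Chac1, 8 did not overlap between the models, all but Trib3, beside 57.1% of all genes. Ddit3, Trib3 and Xbp1 were not called. Herpud1 had a difference of -0.36 without passing (adjusted p = 0.0983), which was -0.19 (adjusted p = 0.373) without the shallow implanted library and a called -0.53 (adjusted p = 0.0256) without implanted cGAMP replicate 2. This comparison and the implanted response share the implanted cGAMP libraries and are not independent. Without spontaneous cGAMP replicate 2 none of the calls was left, without spontaneous cGAMP replicate 1 Hspa5, Asns and Sdf2l1 were left, and without the shallow implanted library Hspa5 (0.62), Asns (0.68) and Atf4 (0.59) were. The Atf4 call was lost without implanted cGAMP replicate 2 (0.25, adjusted p = 0.155). With cells of 3 markers of another lineage left out Hspa5 alone stayed called, and Asns (0.59), Atf4 (0.40), Dnajb9 (0.50), Sdf2l1 (0.67) and Chac1 (1.73) had adjusted p from 0.0503 to 0.0872. With cells of 2 such markers left out none was called, with 0.59 for Hspa5 and 0.76 for Dnajb9. Summed markers of dissociation stress, of mural and immune cells and of vessel types also differed between the models (values above). Their part in this comparison was not tested.

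The other genes of the pathway were read from a list of 70 with a row, of which 64 passed the filter. In implanted tumours 31 of the 64 rose after cGAMP and none fell, against 8.60% of all genes called higher. Without the shallow library 27 rose and 1 fell. ER chaperones and foldases led, with 12 of 13 higher, or 10 without that library. The median of that group was 0.66. Within ER-associated degradation 3 of 9 rose (Syvn1, Selenos and Edem1), and among the sensors and processing proteases none of 8 passed. Of the factors and effectors of the ATF4 and CHOP arm 6 of 11 rose, of the genes of amino acid synthesis and transport 4 of 9 and of the tRNA synthetases 4 of 9. Among the other eIF2alpha kinases and phosphatase subunits 2 of 5 rose, Eif2ak2 and Ppp1r15b.

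The largest changes of this list in implanted tumours were in 3 genes. Nupr1, a small chromatin protein induced by stress, was at 41.2 and 38.5 CPM after PBS and at 315 and 179 CPM after cGAMP (log2 fold change 2.54, SE 0.22, adjusted p = 5.91e-05). Mthfd2, a mitochondrial enzyme of one-carbon metabolism, was at 8.93 and 10.3 CPM and then at 37.4 and 46.0 CPM (log2 fold change 2.0, SE 0.26, adjusted p = 0.000637). Atf5, a relative of ATF4, was at 15.6 and 15.5 CPM and then at 46.7 and 52.6 CPM (log2 fold change 1.61, SE 0.18, adjusted p = 0.000299). None of the 3 overlapped between groups, and the rises of Nupr1 and Atf5 held in all 19 alternatives. Without the shallow library Nupr1 had 2.14, Mthfd2 2.15 and Atf5 1.69, all still called.

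In spontaneous tumours 14 of the 64 rose and 1 fell, against 5.09% and 7.59% of all genes. The largest rises were in Eif2ak2 (PKR, the interferon-inducible eIF2alpha kinase of double-stranded RNA), from 50.7 and 56.0 CPM to 171 and 165 CPM (log2 fold change 1.64, SE 0.11, adjusted p = 8.38e-06), in Wars (tryptophanyl-tRNA synthetase, also interferon-inducible), from 39.4 and 41.9 CPM to 133 and 117 CPM (1.59, SE 0.20, adjusted p = 0.000811), and in Nupr1, from 32.2 and 39.4 CPM to 99.1 and 106 CPM (1.49, SE 0.22, adjusted p = 0.0021). Creb3l2, an ER-anchored transcription factor, fell from 109.8 and 112.1 CPM to 87.5 and 77.5 CPM (-0.43, SE 0.09, adjusted p = 0.0171) and lost the call in 6 of 19 alternatives. Chaperones gave 4 calls of 13 (Hsp90b1, Calr, Pdia4 and Pdia6) and the ATF4 and CHOP arm 5 of 11. The kinases PERK, GCN2 and HRI and the sensors IRE1 and ATF6 were among the genes that were not called in either model.

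**Figure D3:**
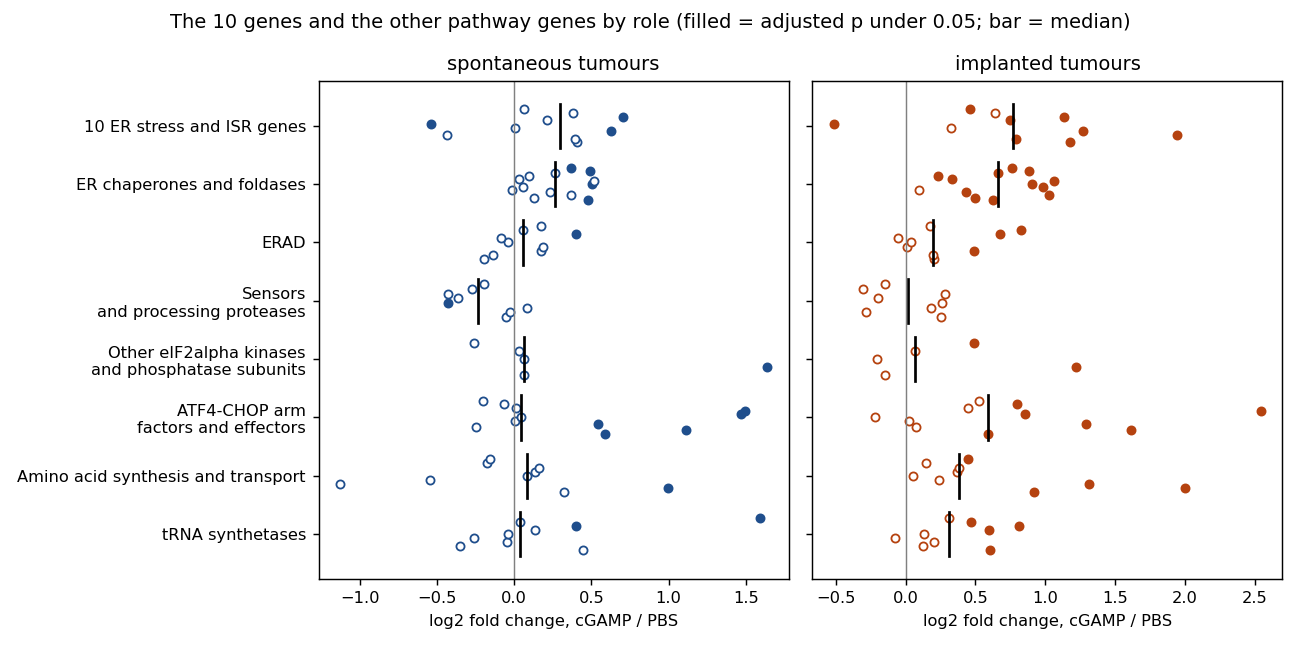
Log2 fold change after cGAMP of the 10 genes and of 64 other pathway genes, by role, in spontaneous (left) and implanted (right) tumours, filled where the adjusted p was under 0.05, with a bar at each group's median and an axis of its own in each panel. In implanted tumours 12 of 13 chaperones are filled and lie above 0, while no sensor is filled.

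Between the models, 27 of the 64 genes were higher and 2 lower in implanted tumours after cGAMP, against 5.23% and 8.53% of all genes. Without the shallow library 14 were higher and none lower. After PBS 3 of the 64 were higher and 4 lower, beside 3.39% and 4.44% of all genes, so these counts were near the background. After cGAMP the largest differences among genes of at least 10 CPM were those of Mthfd2 (1.35), Vldlr (1.27) and Nupr1 (1.21), Phgdh (1.52, named after its value was seen) had a larger one at a lower level, and Ddit4 (-0.73) and Cebpg (-0.35) were the 2 that were lower. Without the shallow library Mthfd2 and Nupr1 (0.80) stayed called and Vldlr, Phgdh, Ddit4 and Cebpg did not (adjusted p from 0.0626 to 0.119). After PBS Wars was higher in implanted tumours (1.90), as were Eif2ak2 (0.70) and Atf3 (0.61), and Cebpb (-0.62), Tnfrsf10b (-0.58), Slc3a2 (-0.43) and Cebpg (-0.36) were lower. Eif2ak2 was at 78.7 to 96.2 CPM and Wars at 119 to 202 CPM in implanted PBS libraries, above their spontaneous PBS values given above. In the difference of the responses none of the 64 passed.

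Vessel types were marked by UMIs of at least 3 genes of 1 marker list and of more than of any other. The classes held 1778 arterial-marker, 1556 venous-marker, 423 tip-marker, 991 AQP7-marker (capillary), 171 proliferative-marker and 278 lymphatic-marker cells, and 1962 ECs were in no class. None of the 10 genes is in a marker list. A class is a range of a score. Cells near the cut of a class had the minimum of 3 markers or only 1 marker more than of the next list. They made up 52.7% of the tip-marker and 63.7% of the AQP7-marker cells, against 23.4% of arterial-marker and 28.6% of venous-marker cells. Each class was set against all other ECs of the same library, so that the classes are not independent of each other. The difference was averaged over the 4 PBS libraries in a fit over all 8, which share the estimate of the spread. The other ECs include those in no class, with a median of 4939.5 UMIs against 9689 to 18106 in the classes. Venous-marker cells had a higher median than the other ECs in every library, and AQP7-marker cells a lower one in all but the shallow library. Beyond the alternative with ECs of at least 2000 UMIs, the part of depth was not tested.

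Xbp1 was the gene of the list that followed vessel type most clearly. In arterial-marker cells it was at 185, 184, 166 and 144 CPM in the 4 PBS libraries (spontaneous 1 and 2, implanted 1 and 2), against 278, 305, 250 and 224 CPM in the other ECs. It was lower in all 4, a log2 difference of -0.63 (SE 0.05, adjusted p = 4.06e-07). In venous-marker cells it was at 379, 407, 344 and 294 CPM against 210, 238, 195 and 169 CPM, higher in all 4 (log2 difference 0.81, SE 0.07, adjusted p = 6.63e-07). Both calls held in all 14 alternatives. The same order was seen in the 4 cGAMP libraries, with 207 to 268 CPM in arterial-marker and 383 to 440 CPM in venous-marker cells.

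In arterial-marker cells 4 of the 10 genes were lower after PBS and none higher, where 30.7% of all genes were called and 15.7% as lower. Beside Xbp1 they were Asns, at 12.4, 25.0, 11.8 and 11.5 CPM against 26.4, 26.5, 26.4 and 27.3 CPM (-0.85, SE 0.14, adjusted p = 0.000348), Trib3, at 6.25, 15.6, 4.83 and 6.64 CPM against 10.8, 15.6, 14.6 and 10.4 CPM (-0.68, SE 0.20, adjusted p = 0.0174), and Sdf2l1, at 20.1, 23.9, 22.3 and 23.1 CPM against 27.8, 28.2, 34.0 and 36.4 CPM (-0.48, SE 0.13, adjusted p = 0.0128). In spontaneous replicate 2 Asns and Trib3 were near the level of the other ECs. Hspa5 was alike in arterial-marker and other ECs (log2 difference -0.02, SE 0.05). The Sdf2l1 call was lost in 5 of 14 alternatives, among them those without spontaneous PBS replicate 1 or either implanted PBS library (adjusted p from 0.0595 to 0.0803). The Trib3 call was lost in 3, among them those without spontaneous PBS replicate 1 (0.147) or implanted PBS replicate 1 (0.211). Of the other pathway genes the amino acid transporter chain Slc3a2 (1.27) and the eIF2alpha phosphatase subunit Ppp1r15a (0.95) were higher and Vldlr (-1.74) and Nupr1 (-1.28) lower.

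In venous-marker cells 3 of the 10 were called, with 27.3% of all genes called, 9.47% as higher and 17.8% as lower. Asns was higher with Xbp1, at 27.6, 29.1, 30.9 and 30.1 CPM against 21.0, 25.3, 20.2 and 19.7 CPM (log2 difference 0.44, SE 0.14, adjusted p = 0.0296), and was lost in 5 of 14 alternatives, among them those without any 1 PBS library (adjusted p from 0.0777 to 0.143). Chac1 was lower, at 0.0924 and 0.310 CPM in spontaneous and listed at 0 in both implanted PBS libraries, against 0.982 to 4.04 CPM in the other ECs. Its fitted difference of -1.44 depends on the pseudocount, and with 5 CPM in its place the call was lost (adjusted p = 0.092), as it was without spontaneous PBS replicate 1 or either implanted PBS library (0.0571 to 0.0886). Atf4, at 142.8 to 176.8 CPM against 171.2 to 193.9 CPM, did not pass (-0.24, SE 0.09, adjusted p = 0.0729) but was called lower in 5 of 14 alternatives, among them those without either implanted cGAMP library (0.00972). Ddit3 was lower in venous-marker cells in all 4 PBS libraries, at 17.7 to 26.1 CPM against 19.2 to 30.03 CPM, and in all 4 cGAMP libraries, at 28.6 to 35.4 CPM against 41.8 to 60.0 CPM. It did not pass after PBS (-0.31, SE 0.12, adjusted p = 0.0746) but did without either implanted cGAMP library (0.0421). Nupr1 (1.06), Vldlr (1.05) and Cebpb (0.81) of the other pathway genes were higher in venous-marker cells and Gdf15 lower (-1.92).

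Tip-marker and AQP7-marker cells each had 1 call, a lower level of Dnajb9. In tip-marker cells it was at 24.7, 45.5, 33.2 and 50.1 CPM against 54.8, 55.0, 55.9 and 67.5 CPM (-0.64, SE 0.20, adjusted p = 0.0369), where 20.4% of all genes were called and 15.2% as lower. In AQP7-marker cells it was at 42.2, 46.7, 32.3 and 46.7 CPM against 55.4, 56.1, 58.2 and 70.0 CPM (-0.51, SE 0.13, adjusted p = 0.0182), where 10.5% were called and 8.41% as lower. The tip call was lost in 5 of 13 alternatives and the AQP7 call in 6 of 14, the first without spontaneous PBS replicate 1 or either implanted PBS library (adjusted p from 0.101 to 0.181) or either spontaneous cGAMP library (0.0573), the second without any 1 of the 4 PBS libraries (0.0581 to 0.18). Trib3 was higher in tip-marker than in other ECs in 4 of 4 PBS and 4 of 4 cGAMP libraries, at 13.1 to 32.0 and 29.2 to 44.7 CPM, but did not pass after PBS (0.90, SE 0.32, adjusted p = 0.0643). Herpud1 was lower in 4 of 4 and 4 of 4, at 38.2 to 58.8 and 29.8 to 56.7 CPM, and did not pass either (adjusted p = 0.0513). With a pseudocount of 5 CPM both were called, Trib3 at 0.72 (adjusted p = 0.039) and Herpud1 at -0.43 (adjusted p = 0.0495). Tip-marker cells numbered 31 to 58 in a PBS library, and in spontaneous replicate 1 their Hspa5 (927 CPM) and Atf4 (339 CPM) were far above those in replicate 2 (443 and 110 CPM). Left out, replicate 1 turned the tip difference of Atf4 from 0.05 to -0.36 (adjusted p = 0.0427) and that of Hspa5 from -0.01 to -0.30 (adjusted p = 0.048). Without it Asns was called lower (-1.10, adjusted p = 0.0139), and the tip response of Atf4 (0.71, adjusted p = 0.031) and of Hspa5 (0.67, adjusted p = 0.0231) was called larger than that of the other ECs. Without replicate 2 the tip difference of Atf4 was 0.46 (adjusted p = 0.0121). Of the other pathway genes the oxidoreductase Ero1l (1.30) and Creb3l2 (0.90) were higher in tip-marker cells, and Gdf15 was lower in tip-marker (-3.07) and AQP7-marker (-2.60) cells.

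**Figure D4:**
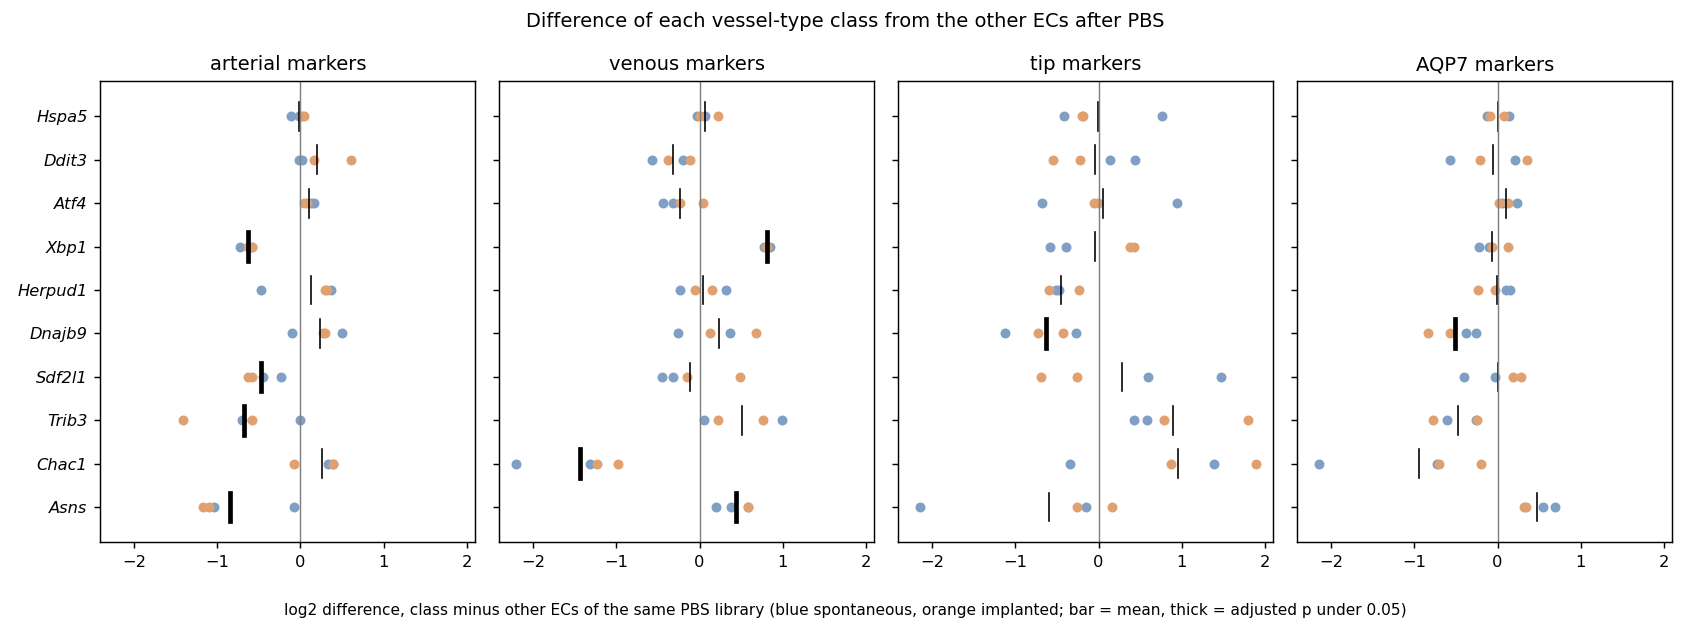
Log2 difference of each gene between a marker class and the other ECs of the same PBS library, for arterial, venous, tip and AQP7 markers (4 dots per gene, blue spontaneous and orange implanted, with a bar at the mean that is thick where the adjusted p was under 0.05). The 4 Xbp1 dots lie left of 0 in arterial-marker and right of 0 in venous-marker cells.

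The cGAMP response of arterial-marker cells exceeded that of the other ECs for 2 of the 10 genes, where 1.44% of all genes were called and 0.969% as higher. After PBS Hspa5 was at 552, 549, 577 and 640 CPM in arterial-marker cells and at 560, 595, 561 and 632 CPM in the other ECs, so they were close. After cGAMP it was at 869, 686, 1447 and 1220 CPM in arterial-marker cells against 712, 547, 918 and 938 CPM, higher in all 4 libraries. The response differed by 0.43 on the log2 scale (SE 0.07, adjusted p = 0.00958). Sdf2l1 was lower in arterial-marker cells in all 4 PBS libraries (values above) and higher in all 4 cGAMP libraries, at 85.7, 38.0, 153 and 99.1 CPM against 44.4, 33.8, 60.7 and 53.6 CPM, a difference in response of 1.30 (SE 0.19, adjusted p = 0.00368). For Xbp1 the difference was 0.30 without passing (SE 0.07, adjusted p = 0.0709), and the other 7 genes had adjusted p of 0.744 or more.

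Within each model the arterial excess of Hspa5 after cGAMP was seen in both libraries. The within-library log2 difference was -0.02 and -0.12 after PBS and 0.29 and 0.33 after cGAMP in spontaneous tumours, and 0.04 and 0.02, then 0.66 and 0.38, in implanted ones. For Sdf2l1 it was -0.45 and -0.23, then 0.93 and 0.16, in spontaneous tumours, and -0.59 and -0.63, then 1.32 and 0.87, in implanted ones. In the shallow library the arterial-marker cells had a median of 9533 UMIs against 2577.5 in the other ECs. Without that library both calls held, with 0.36 for Hspa5 (adjusted p = 0.0214) and 1.19 for Sdf2l1 (adjusted p = 0.0109). The Hspa5 call was lost without spontaneous cGAMP replicate 1, spontaneous cGAMP replicate 2 or implanted PBS replicate 2 (adjusted p from 0.0501 to 0.0606). Both were lost in the smaller set of cells without 2 markers of another lineage, where the differences were 0.70 and 1.61. Summed arterial markers over all ECs were at 1789 to 2271 CPM after PBS and 1008 to 1494 CPM after cGAMP, and their part in the result was not tested.

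Among the other pathway genes, those that passed in the arterial response were all chaperones. Pdia6 and Hsp90b1 (GRP94), a disulfide isomerase and the ER form of Hsp90, had differences of 0.65 (SE 0.10, adjusted p = 0.00434) and 0.58 (SE 0.07, adjusted p = 0.00186), and Calr (calreticulin) 0.44 (SE 0.09, adjusted p = 0.0308). The remaining 10 of 13 chaperones did not pass, and 12 of the 13 differences were positive, with a median of 0.29 beside -0.01 over all genes. No gene of the other 6 groups passed.

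**Figure D5:**
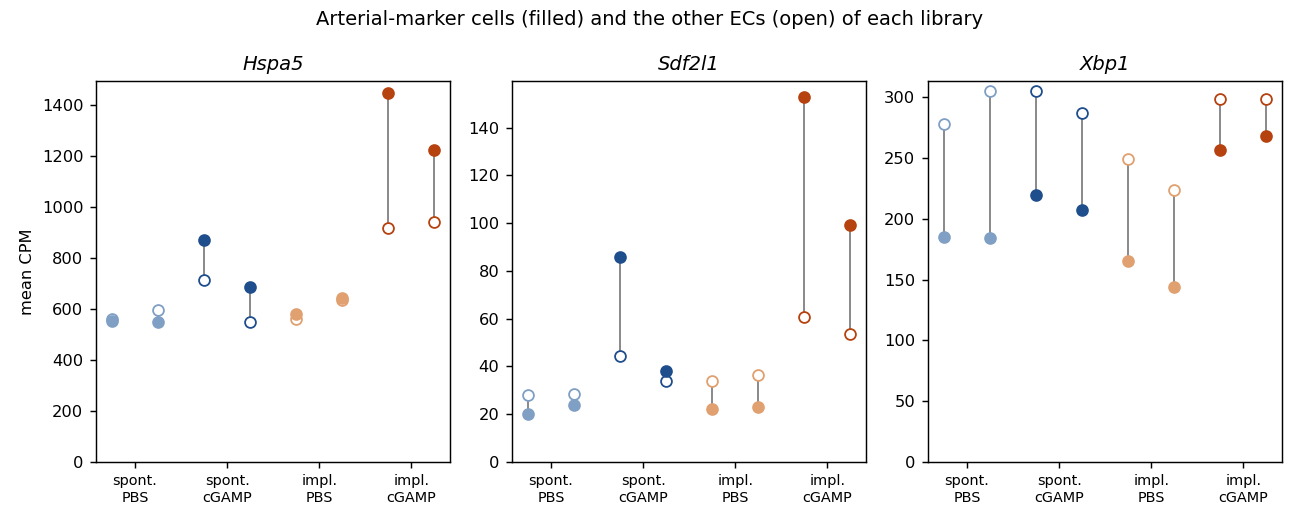
Mean CPM of Hspa5, Sdf2l1 and Xbp1 in arterial-marker cells (filled) and in the other ECs (open) of each of the 8 libraries, joined by a line per library, on linear axes from 0. For Hspa5 and Sdf2l1 the filled symbol lies above the open one in all 4 cGAMP libraries, and for Xbp1 below it in all 8.

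In the other classes no gene of the 10 had a response that differed from the rest by limma. Venous-marker cells had 3 of 10 at an unadjusted p under 0.05 (1707 of 10424 genes), tip-marker cells 2 (1364 genes) and AQP7-marker cells 4 (1159 genes), where 3.76%, 0.691% and 0.652% of all genes were called. Hspa5 had differences of -0.24 (SE 0.09, adjusted p = 0.179) in venous-marker and -0.35 (SE 0.09, adjusted p = 0.0883) in AQP7-marker cells. In tip-marker cells Hspa5 was above the other ECs in 4 of 4 cGAMP libraries, at 772 to 1184 CPM against 570 to 1002 CPM. After PBS this was so in 1 of 4. The tip response of Hspa5 did not pass (adjusted p = 0.473) and was 0.38 without the shallow library. Without the shallow library the venous value was -0.33 and passed (adjusted p = 0.0152). Of the other pathway genes Nupr1 had a smaller response in venous-marker cells (-1.07, adjusted p = 0.0071) and a larger one in tip-marker cells (1.39, adjusted p = 0.033) than in the other ECs, and Cebpb a smaller one in venous-marker cells (-0.55, adjusted p = 0.00817).

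Proliferative-marker cells were too few for a test, with at least 20 cells in 3 PBS libraries only (75 at most) and 1 to 5 cells in a cGAMP library. In these 3 libraries (spontaneous replicate 1, implanted replicates 1 and 2) Sdf2l1 was at 41.4, 47.4 and 77.4 CPM against 25.3, 30.1 and 28.6 CPM in the other ECs, and Asns at 36.8, 42.8 and 28.0 CPM against 22.2, 21.5 and 21.6 CPM, higher in 3 of 3. Xbp1, at 154, 124 and 160 CPM against 257, 232 and 200 CPM, and Dnajb9, at 28.4, 39.5 and 33.1 CPM against 54.6, 55.3 and 69.5 CPM, were lower in 3 of 3. So were Herpud1 (24.7 to 61.3 CPM against 58.5 to 83.7 CPM) and Atf4 (143.5 to 168.2 CPM against 172.6 to 190.6 CPM). Trib3 (4.12 to 7.76 CPM against 9.55 to 12.2 CPM) and Chac1 (listed at 0 in all 3) were lower in 3 of 3 as well. Hspa5 was between 505 and 644 CPM and close to the other ECs. Lymphatic-marker cells reached 20 cells in 6 libraries and were not tested. Their Xbp1 was at 103 to 221 CPM, below the other ECs (198 to 300 CPM) of every one of the 6. Calls in the main comparisons did not change in number when proliferative-marker cells were left out.

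Cell by cell, the genes most like Hspa5 and Ddit3 were sought. ECs were thinned to 2000 UMIs each, which left out 1001 shallower cells and kept 6158, and correlations of log values were averaged over the 8 libraries. Cells of a library share its treatment and depth, so these are descriptions. The genes most like Hspa5 among 6303 genes of at least 20 CPM were Hsp90b1 (mean Pearson r of 0.165, from 0.0768 to 0.274 in a library), Calr (0.161), Pdia3 (0.122), Pdia6 (0.120) and Manf (0.0916), all 5 from the chaperone group. For Ddit3 no gene exceeded Herpud1 (0.0517), and such values in sparse counts are no finding. The share of thinned cells with an Hspa5 UMI was 60.4% to 66.3% in PBS libraries, 61.0% and 66.0% in spontaneous cGAMP and 77.0% and 80.1% in implanted cGAMP libraries, against 82.1% to 95.2% before thinning. No cell type that should lack Hspa5 is among these cells, so the part of free RNA in such shares was not measured.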

How the data were processed

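Libraries were grouped by their labels. Per the methods and the labels, the authors aligned reads to mm10 with Cell Ranger 3.0.0, used Seurat 3.1.1, dropped cells under 500 genes or over 10% mitochondrial reads, dropped genes seen in under 3 cells, and deposited natural log values, ln(1 + UMIs × 10000 / total UMIs of the cell). All values gave whole UMIs within a tolerance of 0.01. No numeric column was left unused. The 10 genes and all lists were chosen with earlier results of these data known. ECs were cells with a Pecam1 UMI. No doublet caller was run, and cells with markers of another lineage were left out as an alternative.

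The level of a gene was its mean CPM over ECs. log2(CPM + 1) was fitted in limma 3.58.1 (R 4.3.3, eBayes with trend, 4 group means, 8 libraries) over 10424 genes with at least 5 CPM in 2 libraries. Vessel classes, of at least 20 cells in a library, were tested on differences within libraries. P values were Benjamini-Hochberg adjusted over all genes. The study tested single cells with MAST, which was not used here. All 10 genes are named. Of other pathway genes, up to 3 per direction with the largest called change and at least 10 CPM are named, together with genes that make up a count. The fits were tested on simulated data with normal noise, in which 200 of 10424 genes changed by 2 on the log2 scale. They recovered 96% in the implanted response, 87.5% in the difference of the responses and 98.5% in arterial-marker cells after PBS. Smaller changes, as most given here are, were not simulated, so the power to call them is not known.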

Additional observations from a re-analysis of the deposited data

Results flagged for a closer look

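These results are differences between groups in the response to cGAMP, each tested as the response of a marker class minus that of the other ECs (limma, adjusted p under 0.05). In arterial-marker cells the difference was positive for 5 genes, Sdf2l1 (1.30), Pdia6 (0.65), Hsp90b1 (0.58), Calr (0.44) and Hspa5 (0.43). Of these, Calr lost the call in 8 of 14 alternatives, Hspa5 in 4, and Sdf2l1, Pdia6 and Hsp90b1 in 1 each. In venous-marker cells it was negative for Nupr1 (-1.07) and Cebpb (-0.55) and positive for Gars (0.50), glycyl-tRNA synthetase, which lost the call in 10 of 14 alternatives. In tip-marker cells it was positive for Nupr1 (1.39), lost in 7 of 13. In AQP7-marker cells it was negative for Hsp90b1 (-0.34), lost in 13 of 14.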

How the results depend on the processing

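The calls of Atf4, Ddit3, Hspa5 and Xbp1 in implanted response held in all alternatives, and the Xbp1 calls in arterial-marker and venous-marker cells did too. Counts here include Chac1. The count of the 10 genes called in spontaneous response, which was 3, moved to 0 without the filter on low levels, 5 with UMIs summed per library or with ECs of at least 2000 UMIs, and 1 without cells with 2 markers of another lineage. The latter exclusion took 39.9% to 86.1% of ECs, and one at 3 markers was added after seeing the data. In implanted response the 2-marker exclusion moved the count from 8 to 4. Between models after PBS it moved from 0 to 1 with summed UMIs and with either exclusion, and after cGAMP from 6 to 3 without the filter, 0 with the 2-marker and 1 with the 3-marker exclusion. In arterial-marker cells the 2-marker exclusion moved the counts from 4 to 1 (PBS) and 2 to 0 (response), in venous-marker cells from 3 to 1, and in AQP7-marker cells both exclusions moved it from 1 to 0. Tip-marker cells went from 1 to 2 at 2000 UMIs and to 3 with a pseudocount of 5, and could not be fitted under the 2-marker exclusion. The cause was not tested. With 1 library left out at a time, the lone library of its group being assumed to vary like the others, counts ranged from 0 to 4 (spontaneous), 6 to 9 (implanted), 0 to 2 and 0 to 5 (models after PBS and cGAMP), and 0 to 0 for the difference of the responses. In the classes they ranged from 2 to 4, 1 to 5, 0 to 3 and 0 to 1 after PBS (arterial, venous, tip, AQP7) and from 1 to 2, 0 to 1, 0 to 2 and 0 to 0 in response. Atf4 in tip-marker cells was 0.05, reversed to a called -0.36 without spontaneous PBS replicate 1 and was 0.46 without replicate 2. Proliferative-marker cells gave no test under any setting run.

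Median-of-ratios scaling moved the median of all genes from -0.10 to -0.0038 in the spontaneous and from -0.10 to -0.0072 in the implanted response, so that 665 of 1002 calls were higher in spontaneous tumours (531 of 1322 before) and 1178 of 2289 in implanted ones (896 of 2609 before). Under it Herpud1 lost both calls (-0.44, adjusted p = 0.0744, and -0.42, adjusted p = 0.0546), Dnajb9 and Trib3 were called in implanted and Asns and Atf4 in spontaneous tumours. A fit with the replicate number as a replicate block gave 3, 8, 0, 0 and 5 calls in the 5 comparisons, ending that of Atf4 between models after cGAMP (adjusted p = 0.0556), and changed no other call of the 10 genes. The labels do not pair libraries, and deviations of same-numbered libraries correlated from -0.22 to 0.13. With 2 libraries per group, depths of 7451522 to 16338968 UMIs in ECs limit Chac1 and Trib3 most.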
